A study of Homo sapiens with 2 samples.

Results

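The genes described here were the writers and erasers of DNA methylation: DNMT1, DNMT3A, DNMT3B, DNMT3L, UHRF1, TET1, TET2 and TET3. For each gene, the CpG dinucleotides within 2000 bp of its most upstream annotated transcription start site (TSS) and those in the rest of the gene (the gene body) were taken from the GRCh37 genome, the build of the deposited tables. The 8 genes, of 20162 protein-coding genes in the annotation, held 12715 of the 28217448 CpG dinucleotides listed. Of these, 12124 had more than 5 reads in both cell lines and were used; the other CpG dinucleotides were left out of levels and tests.

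Whole-genome bisulfite sequencing (WGBS) was performed on 2 established human acute myeloid leukemia (AML) cell lines, with 1 library each. OCI-AML3 is labelled as DNMT3A mutant and carries the R882C change on 1 allele, whereas AML5, named OCI-AML5 in its sample record, is labelled as DNMT3A wild type. The labels give no treatment, and both lines were grown in the same medium. Each mutation status is represented by a single line, so that the DNMT3A mutation and any other difference between the lines cannot be told apart.

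DNMT1 copies methylation onto the new DNA strand after replication, and UHRF1 recognizes hemimethylated CpG dinucleotides and brings DNMT1 to them. DNMT3A and DNMT3B methylate previously unmethylated DNA, with DNMT3L as a partner that lacks catalytic activity of its own, and DNMT3A is one of the genes most often mutated in AML. TET1, TET2 and TET3 oxidize 5-methylcytosine to 5-hydroxymethylcytosine, a step toward its removal, and TET2 is also recurrently mutated in myeloid malignancies. Bisulfite reads both 5-methylcytosine and 5-hydroxymethylcytosine as methylated. The genes that encode these enzymes mostly start in CpG islands, stretches rich in CpG dinucleotides that are usually unmethylated, flanked by shores of lower CpG density.

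The sequences below are a selection of stretches that differed between the lines, without the longest runs of DNMT1, UHRF1, DNMT3L and TET2. The first is the stretch around the codon of the R882C change in DNMT3A (chr2:25457228-25457256, minus strand, exon 23 of 23), with the codon in capitals. The others are runs of neighbouring CpG dinucleotides that differed between the lines, with capitals marking each CG called lower or, for the last, higher in OCI-AML3. They lie upstream of an internal coding TSS of TET3 (chr2:74229540-74229839, plus strand), in intron 1 of DNMT3A (chr2:25563310-25563572, minus strand), in intron 1 of DNMT3B (chr20:31351112-31351305, plus strand) and in intron 1 of TET1 (chr10:70320734-70320782 and chr10:70321263-70321356, plus strand). All are reference sequence and not sequence read from the lines.
DNMT3A R882C codon: ctccaacatgagcCGCttggcgaggcaga
TET3 upstream of the internal TSS: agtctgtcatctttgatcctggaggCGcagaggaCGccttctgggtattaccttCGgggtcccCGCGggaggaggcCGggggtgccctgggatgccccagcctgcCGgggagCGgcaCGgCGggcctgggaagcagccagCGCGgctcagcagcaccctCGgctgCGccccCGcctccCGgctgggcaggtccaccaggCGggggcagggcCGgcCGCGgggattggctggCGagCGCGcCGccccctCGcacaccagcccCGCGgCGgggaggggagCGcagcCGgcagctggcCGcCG
DNMT3A intron 1: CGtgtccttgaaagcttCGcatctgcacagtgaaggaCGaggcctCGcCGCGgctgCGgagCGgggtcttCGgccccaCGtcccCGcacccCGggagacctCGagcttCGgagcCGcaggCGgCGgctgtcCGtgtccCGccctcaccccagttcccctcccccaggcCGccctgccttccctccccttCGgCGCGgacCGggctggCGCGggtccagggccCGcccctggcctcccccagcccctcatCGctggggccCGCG
DNMT3B intron 1: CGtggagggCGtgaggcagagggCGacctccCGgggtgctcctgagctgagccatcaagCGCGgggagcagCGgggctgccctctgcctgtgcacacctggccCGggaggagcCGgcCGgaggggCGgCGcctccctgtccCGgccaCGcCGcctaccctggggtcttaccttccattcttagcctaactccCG
TET1 intron 1, lower: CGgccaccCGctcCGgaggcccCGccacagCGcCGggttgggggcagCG
TET1 intron 1, higher: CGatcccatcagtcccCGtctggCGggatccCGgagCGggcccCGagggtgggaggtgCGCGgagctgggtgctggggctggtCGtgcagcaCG

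The tables held 902802339 calls for OCI-AML3 and 894828667 for AML5, with medians of 28 and 31 calls per autosomal CpG. At the median depth, 3 calls, taken as the smallest detectable number, correspond to a methylation level of 10.7% in OCI-AML3 against 9.68% in AML5. Over all 24454751 CpG dinucleotides tested, the mean methylation level was 67.6% in OCI-AML3 against 75.4% in AML5. Of 6 blood cell markers, the promoters of SPI1, CEBPA and PTPRC had levels of 11.5%, 1.82% and 19.9% in OCI-AML3 and of 11.5%, 6.01% and 20.8% in AML5. Those of MPO, LYZ and CD33 had 93.2%, 75.5% and 36.5% in OCI-AML3 and 90.3%, 71.2% and 32.3% in AML5. No marker promoter differed by 20 percentage points, whereas 1 marker gene body did, that of CEBPA (0.93% against 37.5%). No RNA was measured in the series. Because each line had 1 library, tests and intervals cover read sampling between the libraries and not the spread between cultures, and since 1 read can give several calls, intervals on pooled calls may be narrower than the true sampling error.

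Across the 8 genes, the mean methylation level was 76.2% in OCI-AML3 against 81.2% in AML5, a difference of -5.05 percentage points. Fisher's exact test with Benjamini–Hochberg adjustment over all CpG dinucleotides tested called 1112 of the 12124 lower in OCI-AML3, which is 9.17%, against 14.7% of all CpG dinucleotides tested. A further 202, or 1.67%, were called higher, against 3.86%. With at least 10 reads, 1103 were lower and 199 higher, against 15.4% and 4.11%; with an adjusted p under 0.01, 889 and 149, against 11.5% and 2.88%; and with a difference of at least 20 percentage points, 1029 and 189, against 14.1% and 3.74%. Both shares were below those of the genome under each of these rules. Every one of the 8 genes had a lower level in OCI-AML3 over all its CpG dinucleotides. The difference in mean level was smallest in TET2 (75.1% and 76.6%) and widest in TET3 (72.9% and 80.7%). With calls pooled the order changed. The difference was then smallest in TET1 (-5.94 points) and widest in DNMT3B (-10.2 points), with TET2 at -8.85 points. These pooled values also depend on how the calls were split between promoter and body. The TET2 promoter supplied 6696 of 21432 calls in OCI-AML3 against 5886 of 25219 in AML5. Pooled differences in promoter and body were -6.08 and -1.05 points in TET2 and -1.32 and -3.53 points in TET1. In both genes the whole-gene difference was thus wider than that of either part. The share of CpG dinucleotides called lower ranged from 2.42% in TET2 to 12.01% in TET3. Median depth also varied between the genes, with 20 calls in TET2 and 45 in UHRF1 as the extremes for OCI-AML3 and 28 and 56 in the same genes for AML5. The part of depth in these shares was not tested.

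Around the most upstream TSS, none of the 8 genes was lower or higher by 20 percentage points, the threshold that 8.61% of all promoters passed downward and 1.79% upward. The level was lower in OCI-AML3 in 7 genes and higher in 1, TET1. At 10 points, 3 promoters were lower (DNMT1, DNMT3B and TET3) and 0 higher, against 26.0% and 4.43% of all promoters. The median difference was -4.22 points, and that over 19667 promoters was -4.68. In the gene bodies, all 8 genes were lower in OCI-AML3 and none by 20 points (7.58% of all gene bodies passed this downward and 0.541% upward). At 10 points the count was still 0, against 25.1% of all gene bodies downward and 1.64% upward. The median difference was -4.52 points, against -4.93 over 18292 gene bodies. Single genes were spread widely among all genes: counted from the most negative difference, promoters lay between percentile 14.9 (DNMT1) and 90.9 (TET1), and gene bodies between 34.6 (TET3) and 84.8 (TET2). The differences described next were found in shorter stretches. Runs of at least 3 consecutive called CpG dinucleotides numbered 71 in the lower direction, with 557 CpG dinucleotides, and 11 in the higher direction, with 56. No share of CpG dinucleotides in runs over the genome stands beside these counts, so they do not set these genes apart from others. The runs were chosen by these calls, so that their levels below are a description.

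When the window was divided at the TSS of the canonical transcript, most cores were nearly unmethylated in both lines and the wider differences lay at the edges. Within 500 bp of this TSS, DNMT1, DNMT3A, TET2 and TET3 had levels of at most 1.02% in both lines. DNMT3L was the exception, with a methylated core in both lines, and TET1 was the gene with the widest core difference. In the shores, from there to 2500 bp on either side, the widest lower levels in OCI-AML3 were those of DNMT3B downstream (33.9% against 61.4%) and TET3 upstream (33.7% against 61.5%). The widest higher level was that of TET2 downstream (37.5% against 2.78%). Only 9 of the 30 CpG dinucleotides listed there had enough reads, with 138 calls in OCI-AML3 and 190 in AML5. Of these 9, 4 were called higher.

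DNMT1, the maintenance methyltransferase, had a nearly unmethylated canonical start in both lines. Its core level was 0.71% in OCI-AML3 against 1.02% in AML5 over 77 CpG dinucleotides. The wider difference lay downstream. From 1000 to 1499 bp the level was 10.4% against 37.1%, and the bin from 1500 to 1999 bp had a level of 62.7% in OCI-AML3 against 96.4% in AML5, with 5 of 8 CpG dinucleotides called lower. The unmethylated stretch thus reached further into the gene in OCI-AML3. The most upstream annotated TSS of DNMT1 lies far from the canonical one, at chr19:10341962 on the minus strand, in a window shared with S1PR2, which encodes a sphingosine-1-phosphate receptor, and with MIR4322. There the promoter level was 21.1% in OCI-AML3 against 36.1% in AML5 over 186 CpG dinucleotides, with 52 called lower and 1 higher. The pooled shares of calls were 22.7% (95% Wilson interval 21.7 to 23.6%) and 39.6% (38.5 to 40.7%). This was the widest difference of the 8 genes around the most upstream TSS, and at the canonical TSS it was -5.25 points. The longest run, 13 CpG dinucleotides at chr19:10340779-10340922, lay in this upstream window with levels of 25.4% and 77.3%. A shorter run of 9 at chr19:10309939-10310166, upstream of the canonical TSS, was 0.93% methylated in OCI-AML3 against 83.1% in AML5. The remaining 19 groups of annotated TSS downstream of the canonical one lay between 88.3% and 94.3% in OCI-AML3 and between 93.1% and 96.4% in AML5.

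UHRF1, the partner of DNMT1, showed differences on both sides of its canonical start. Within 500 bp the level was 7.90% in OCI-AML3 against 13.2% in AML5 over 113 CpG dinucleotides. In the 500 bp before the TSS it was 23.3% and 37.4%, with 13 of 38 CpG dinucleotides called lower, whereas the first 500 bp after it were at 0.09% and 0.98%. The edge further downstream differed more. Between 2000 and 2499 bp the level was 16.2% in OCI-AML3 against 54.7% in AML5, and 18 of 20 CpG dinucleotides were called lower. This edge overlapped the longest run of the gene, 25 CpG dinucleotides in intron 2 (chr19:4911714-4912304), with levels of 15.6% and 69.2%. Another run of 18 lay in intron 5 (chr19:4933150-4933804), with 14.6% and 91.3%. No run of UHRF1 was higher in OCI-AML3. The most upstream TSS, that of 1 transcript, lay in largely methylated DNA, with a level of 78.7% and 82.7%.

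DNMT3A, the de novo methyltransferase mutated in OCI-AML3, had the lowest promoter level of the 8 genes in OCI-AML3, 10.4%, against 14.8% in AML5 (343 CpG dinucleotides, 24 called lower and 0 higher). The difference of -4.41 points was -7.72 at the canonical TSS, -7.90 with calls pooled and -1.39 within 1000 bp. Its island core was unmethylated in both lines, with 0.073% of 6843 calls methylated in OCI-AML3 (0.031 to 0.171%) and 0.195% of 4111 in AML5 (0.099 to 0.384%). The downstream edge of the island differed. From 1000 to 1499 bp after the canonical TSS the level was 1.42% in OCI-AML3 against 40.2% in AML5, with 37 of 64 CpG dinucleotides called lower. The 30 neighbouring CpG dinucleotides of the intron 1 sequence given above had levels of 2.52% and 74.2%, and the depth there was 47.5 and 23.5 calls per CpG. Deeper in the gene, a run of 15 in intron 2 (chr2:25527285-25527648) had 37.5% and 91.1%. DNMT3A also encodes a shorter protein form from an internal start. Around that start (3 transcripts) the level was 40.8% in OCI-AML3 against 47.2% in AML5, with 18 of 176 CpG dinucleotides called lower. In the opposite direction, a run of 7 at chr2:25547933-25548182 had 90.04% in OCI-AML3 against 38.4% in AML5.

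The codon of the R882C change, CGC on the coding strand of DNMT3A, itself contains a CpG. In OCI-AML3, 15 of 37 calls at this CpG were methylated, a level of 40.5% (95% Wilson interval 26.3 to 56.5%). In AML5, 20 of 21 calls were methylated, or 95.2% (77.3 to 99.2%). The difference of -54.7 points passed Fisher's exact test (adjusted p = 0.000281). Most of its surroundings were highly methylated in both lines. The 30 nearest CpG dinucleotides, from -625 to 721 bp along the gene, had a median level of 95.9% in OCI-AML3 against 98.2% in AML5, and none had a lower level in OCI-AML3 than the codon. Only 1 of the 30 was called, 374 bp away, with 43.8% and 93.3%. The R882C change replaces the first base of the codon, the cytosine of this CpG, by thymine, and a thymine is counted as an unmethylated cytosine after bisulfite treatment. With the strands added together in the tables, a base change and an unmethylated cytosine cannot be told apart at this position.

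DNMT3B, the second de novo methyltransferase, differed at both edges of its island. The first 500 bp after the TSS were at 0.02% in OCI-AML3 against 0.08% in AML5. In the 500 bp before the TSS the level was 3.50% and 14.3%, with 7 of 36 CpG dinucleotides called lower. Downstream it was 3.67% and 28.2% between 500 and 999 bp and 42.5% and 89.1% between 1000 and 1499 bp, where 13 of 22 CpG dinucleotides were called lower. The 16 CpG dinucleotides of the intron 1 sequence above lay across this edge, with levels of 7.37% and 78.7%. The promoter as a whole had 19.2% in OCI-AML3 against 31.8% in AML5, with 34 of 185 CpG dinucleotides called lower and 1 higher. The body of DNMT3B had the second narrowest difference of the 8 genes, with 90.04% and 92.9%.

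DNMT3L, a regulatory partner expressed mainly in germ cells and early embryos, was the only one of the 8 genes with a methylated canonical core in both lines, at 86.5% in OCI-AML3 against 90.01% in AML5 (22 CpG dinucleotides). Its promoter level was 83.4% and 84.6%, with 1 of 81 CpG dinucleotides called lower and 3 higher. With calls pooled the promoter difference turned from -1.14 to 1.71 points. The lines differed at the other end of the gene. A run of 26 CpG dinucleotides over exon 11 and the introns on either side (chr21:45668852-45669347) had a level of 3.31% in OCI-AML3 against 84.5% in AML5, and the pooled share was 3.24% (2.48 to 4.24%) against 84.6% (82.6 to 86.4%). A further run of 10 in intron 10 had 10.5% and 72.3%. The CpG island at the very end of the gene (chr21:45666037-45666553) went the other way, with 82.5% and 65.7%, and 8 of its 25 CpG dinucleotides were called higher and 0 lower. When the gene was divided into 5 equal parts, the widest difference was in the last, with 68.7% and 89.7%. The longest higher run of DNMT3L held 3 CpG dinucleotides, with 85.5% and 37.7%.

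TET1, an eraser that binds unmethylated CpG dinucleotides through its CXXC domain, differed in both directions around its single annotated TSS. Within 500 bp the level was 0.99% in OCI-AML3 against 20.98% in AML5, and 32 of 62 CpG dinucleotides were called lower. The pooled shares were 1.14% of 2991 calls (0.81 to 1.58%) and 19.1% of 2406 calls (17.6 to 20.7%). Methylation in AML5 at this start was partial, with 29.4% in the 500 bp before the TSS and 18.8% in the 500 bp after it. The longest lower run, 9 CpG dinucleotides in exon 1 (chr10:70320147-70320196), had 0.69% and 30.2%. Further into intron 1 the order turned. Between 1000 and 1499 bp the level was 66.2% in OCI-AML3 against 20.4% in AML5, and 19 of 25 CpG dinucleotides were called higher. Between 1500 and 1999 bp it was 93.6% and 57.5%, with 13 of 21 called higher. In OCI-AML3 the level was 0.99% in the core and 93.6% in this last bin, whereas in AML5 it did not climb steadily. The pair of TET1 sequences above lies on either side of the point where the order turned. Levels were 2.34% and 52.0% in the upstream one and 54.4% and 3.29% in the downstream one. Over the whole window these differences largely cancelled, with 34.0% and 31.2%, and the direction depended on the window: the difference was 2.80 points in the main window, -16.0 points within 1000 bp and -1.32 points with calls pooled. TET1 also had 18 CpG dinucleotides below 5% in OCI-AML3 and above 90% in AML5. Of these, 14 had no adjacent tested CpG called in the same direction. A base difference between the lines and an unmethylated cytosine cannot be told apart at such single positions.

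TET2, the family member most often mutated in myeloid disease, had the smallest difference in mean level over the whole gene, but not with calls pooled (65.7% and 74.6%). The pooled whole-gene values also depend on the split of calls between promoter and body given above. Its core had 0.11% in OCI-AML3 against 0.03% in AML5 over 77 CpG dinucleotides, and its island of 1535 bp had 0.13% in both, with no CpG called. Its promoter level was 11.2% and 12.03%, with 3 of 149 CpG dinucleotides called lower and 0 higher; the difference was -0.79 points and, with calls pooled, -6.08 points. One short stretch went the other way. A run of 4 CpG dinucleotides in intron 1 (chr4:106070048-106070262) had 84.5% in OCI-AML3 against 6.25% in AML5, or a share of 80.7% of 57 calls (68.7 to 88.9%) against 7.69% of 65 calls (3.33 to 16.8%). TET2 had no run of lower CpG dinucleotides, and its depth in OCI-AML3 was the lowest of the 8 genes.

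TET3 held the longest run of the 8 genes. Its canonical core was unmethylated in both lines, at 0.11% in OCI-AML3 against 0.14% in AML5 (125 CpG dinucleotides), and both edges of the island differed. In the upstream shore the level was 33.7% and 61.5%, with 33 of 58 CpG dinucleotides called lower. Between 1500 and 1999 bp downstream it was 57.01% and 93.9%. The widest difference lay at an internal TSS in intron 2 of the canonical transcript, at chr2:74229840, from which a second coding transcript starts. Within 2000 bp of this TSS the level was 38.6% in OCI-AML3 against 86.2% in AML5, with 70 of 123 CpG dinucleotides called lower and 1 higher. The CpG island there, 1153 bp long, had 16.7% and 87.9%, with 67 of 82 called lower. Within it, 66 consecutive CpG dinucleotides (chr2:74229522-74230215), which include those of the sequence above, had 5.30% and 87.0%. Pooled, 3.50% of 2973 calls (2.90 to 4.22%) were methylated in OCI-AML3 and 86.5% of 1666 calls (84.8 to 88.1%) in AML5. Depth differed in this run, at 45.0 calls per CpG for OCI-AML3 and 25.2 for AML5, and its part in the result was not tested. The island at the canonical TSS of TET3 had 3.56% and 9.87%, a difference of -6.31 points, whereas that at the internal island was -71.1 points. A run of 5 further into the gene (chr2:74268185-74268666) was higher in OCI-AML3, with 86.3% and 27.7%.

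In the gene bodies OCI-AML3 had its lowest level in UHRF1 (76.8%) and its highest in TET2 (91.2%), and AML5 had its lowest in UHRF1 (82.5%) and its highest in DNMT3B (92.9%). The widest differences were those of TET3 (82.7% and 90.1%) and DNMT3L (80.4% and 87.6%), and the narrowest was that of TET2 (91.2% and 92.8%). The windows around internal TSS count as body here; without every annotated TSS window, the difference moved from -7.45 to -3.68 points in TET3 and from -7.21 to -3.43 in DNMT3L, and DNMT1 (-5.63 points) and UHRF1 (-5.08) were then the widest. With calls pooled, DNMT3L (-9.65 points) and UHRF1 (-9.03) were the widest. Coding exons differed by less than 2 points in DNMT1, DNMT3A, DNMT3B, TET1, TET2 and TET3. In DNMT3A they had 94.4% in OCI-AML3 against 95.7% in AML5, in TET2 94.7% and 96.4%, and in TET3 92.7% and 93.8%, whereas those of UHRF1 had 85.3% and 91.96% and those of DNMT3L 85.01% and 88.5%. The TET3 difference lay mainly in the first of 5 equal parts of the gene, with 63.2% and 86.9% and 107 of 339 CpG dinucleotides called lower, and in the middle part the levels were 90.4% and 90.8%. Divided into 1 kb tiles with at least 5 CpG dinucleotides, TET3 had 10 tiles lower by 20 points of 107, DNMT3A 7 of 117, and DNMT1 and TET1 6 each of 101 and 120. TET2 had none of 56. TET1, TET2 and TET3 each had 1 tile higher by 20 points, and the writers had none. No share over all 1 kb tiles of the genome stands beside these tile counts, which are a description only. In the 50 kb on either side of each gene, the levels were also lower in OCI-AML3 for all 8, with differences between -2.38 points around TET2 and -9.41 points around DNMT3A.

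The other genes of the pathway, 33 partners, readers and repair enzymes, were described in the same way, and 32 had at least 10 CpG dinucleotides in the promoter. Of these, 27 were lower and 5 higher in OCI-AML3, with a median difference of -2.63 points. Over all promoters the median was -4.68 points and the upper quartile -1.43 points. Of the 32 pathway promoters, only that of UHRF2, the paralogue of UHRF1, passed 20 points. Of all promoters, 8.61% passed this downward and 1.79% upward. The UHRF2 promoter had 3.69% in OCI-AML3 against 30.8% in AML5, with 73 of 236 CpG dinucleotides called lower. The promoter of ZFP57, which protects imprinted regions, was higher by 14.2 points. Its gene body went the other way, with 72.6% in OCI-AML3 against 90.9% in AML5, and 24 of 72 CpG dinucleotides were called lower and 0 higher. In the gene bodies 2 of the 32 passed 20 points, both lower, against 7.58% of all gene bodies downward and 0.541% upward. ZBTB33, a methylation-dependent repressor on chromosome X, had 6.51% and 94.4% over 33 CpG dinucleotides, at mean depths of 16.8 and 15.8 calls. MAT2A, which makes the methyl donor, had 58.8% and 87.4% over 37. These last 3 genes were named after their values were seen.

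DNMT3A was also compared with 18075 genes on 4 values, the promoter and body levels in each line. The nearest named gene was THBS3, at a Euclidean distance of 0.87 points, and 2 genes without a symbol lay at 0.75 and 1.64 points. DNMT1, the gene with the widest difference around the most upstream TSS, was nearest to S1PR2, which shares its promoter window, followed by OPTN at 1.61 points and BOC at 2.12 points.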

How the data were processed

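Genomic DNA of 1 culture per line was spiked with unmethylated lambda DNA, sheared, converted with bisulfite and sequenced. Reads were mapped to hg19 and methylation calls made with Bismark by the authors; the submitters' processing notes also name Bowtie 0.12.8. The deposited tables hold, for each CpG dinucleotide, unnormalized counts of its methylated and its unmethylated calls, both strands added. Whether duplicate reads were removed is not given in the sources used here; duplicates left in would make intervals too narrow. The methylated column was identified from the mitochondrial genome, and positions were checked against GRCh37.

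Levels were methylated calls over all calls, averaged over those CpG dinucleotides that more than 5 reads covered in each line, so each CpG has the same weight whatever its depth. Calls at single CpG dinucleotides were tested by Fisher's exact test (two-sided), adjusted by Benjamini–Hochberg over 24454751 CpG dinucleotides at 0.05, after the test was run on simulated data. Pooled shares carry 95% Wilson intervals. Genes and TSS came from GENCODE lifted to GRCh37. Starts within 500 bp were joined into 1 group. Runs allowed gaps of at most 300 bp. CpG islands were joined 500 bp windows with a GC share of at least 0.55 and an observed to expected CpG ratio of at least 0.65.

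Named were all 8 genes, with their TSS groups and longest runs in each direction, pathway genes whose promoter differed by 20 percentage points, and the 3 genes nearest to DNMT3A and to the gene with the widest promoter difference. The members and lists were chosen with earlier results of these data known. Alternatives covered the read minimum, pooled calls, the window, the TSS, the threshold and the definition of runs. Other runs given were named after their values were seen. One result of the pathway list is not reported here. Software was Python 3.11.15, scipy 1.17.1, numpy 2.4.6, numba 0.67.0, pandas 2.3.3, pysam 0.24.0, samtools 1.23.1 and matplotlib 3.10.9.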

Additional observations from a re-analysis of the deposited data

How the results depend on the processing

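No paired analysis was possible because each line had 1 library, and no replicate could be left out. With a threshold of 10 percentage points in place of 20, 3 promoters were lower in OCI-AML3 in place of 0 (26.0% of all promoters). With at least 5 CpG dinucleotides per run, 44 runs remained of 82. The counts of called CpG dinucleotides stayed within 1.5 times the main counts under each alternative, from 889 to 1112 lower and from 149 to 202 higher. Of 48 promoter differences under alternative settings, 28 moved by less than the interval of the main value and 20 by more, over a range of -16.9 to 3.95 points; 44 were negative, and the other 4 were TET1 in 3 settings and DNMT3L with calls pooled. Which promoter differed most depended on the window: DNMT1 at the most upstream TSS (-15.1 points), DNMT3B at the canonical TSS (-12.6, with DNMT1 at -5.25), TET1 within 1000 bp (-16.0) and TET3 upstream only (-13.9). Within 1000 bp, UHRF1 moved from -4.03 to -0.72 points and TET3 from -10.02 to -6.11. The causes were not tested. All 32 gene body differences were negative, from -9.65 to -1.05 points. The alternatives for the CpG in the R882C codon, at least 10 reads and an adjusted p under 0.01, were chosen after seeing the data. They could not test its call, because this CpG had 37 and 21 calls and a main adjusted p of 0.000281 (Fisher's exact test). With at least 10 reads the adjusted p was 0.000260 (Fisher's exact test). Depth limits single CpG dinucleotides most in TET2.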
